A study of Mus musculus with 9 samples.

Results

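The HS3A8-stained fractions of mouse bone marrow megakaryocyte-erythroid progenitors (MEPs) were pooled in 1 average and compared with MEPs stained with the control antibody MPB49. The comparison used 9 of the 9 libraries, chosen by their labels alone: 3 HS3A8-high and 3 HS3A8-low libraries, with both fractions weighted equally, against 3 control libraries. HS3A8 is a single-chain variable fragment (scFv) that binds heparan sulfate, and MPB49 is an scFv of the same format without affinity for heparan sulfate. All 9 libraries came from the progenitor gate Lin-ckit+CD34-FcγRII/IIIlo, with 25000 sorted cells per library, from bone marrow of C57Bl/6 mice with no treatment or allele named in the labels. HS3A8-high and HS3A8-low cells were the upper and the lower part of the HS3A8 binding range, and control cells passed through the sorter without a cut on binding, so that they stand for total MEPs. The mice were age- and sex-matched adults by the study's methods. The study gives individual mice as the replicates of HS3A8-high and HS3A8-low MEPs, while neither it nor the labels say so of the control libraries or tie both fractions of a replicate number to the same mouse. The study's statistics section gives at least 3 biological replicates for its experiments unless stated otherwise, without naming the control libraries. For these the spread behind the p values may therefore still be technical.

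MEPs are the progenitors from which red cells and platelet-forming megakaryocytes arise. Heparan sulfate is a sulfated sugar chain attached to core proteins at the cell surface, where it binds growth factors, and the pattern of sulfation along the chain differs between cell types. A gene shifted alike in both fractions by labelling, sorting or preparation would differ from the control in the same direction in both. By contrast, a gene that follows HS3A8 binding could lie on opposite sides of the control in the fractions. HS3A8-high cells bound more scFv by the gate, so an effect of the stain that grows with binding could also differ between the fractions. The comparison cannot separate such an effect from the binding cut. The stain, the binding cut and the sort each differed between the stained and the control libraries, so their parts in any shared shift cannot be told apart.

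Expression is given in CPM, the reads counted to a gene relative to the library total, scaled for composition. A difference from control is a log2 fold change, and its average over both fractions gives HS3A8-high and HS3A8-low equal weight. Total counts were 11781637 to 15850037 per library, so that 3 counts corresponded to 0.189 to 0.255 CPM. Control replicate 1 stood apart from the rest: 466 genes were more than 2-fold above, and 157 more than 2-fold below, every other library, whereas neither of the other controls had such a gene. HS3A8-low replicate 3 had 93 genes above all other libraries by that measure, and HS3A8-high replicate 2 had 120 genes below. Several results that rest on these libraries are given with and without them, though not every gene or list. Cd34, the surface protein that the gate excludes, was at 15.3, 42.3 and 40.2 CPM in the controls, 3.27, 0.828 and 10.99 CPM in HS3A8-high and 28.1, 61.6 and 73.8 CPM in HS3A8-low. Cd34 and Gata1 are given as gate markers, outside the rule for named genes. Gata1, a transcription factor gene of both MEP lineages, was at 371 to 469 CPM in the controls, 473 to 516 CPM in HS3A8-high and 369 to 457 CPM in HS3A8-low. The erythroid transcription factor gene Klf1 was at 539 to 930, 853 to 1025 and 628 to 802 CPM in the same order, so that the defining factors of the labelled cell type were present in every library.

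No gene passed the test of a shift common to both stained fractions. Of 12108 genes tested by edgeR's quasi-likelihood test, 0 (0%) passed a Benjamini-Hochberg adjusted p of 0.05 in the average of both fractions, and the lowest adjusted p was 0.643. Genes with an unadjusted p under 0.05 numbered 385 (3.18%), of which 98 were above and 287 below the control. That number was 255, 1655 and 821 without control replicates 1, 2 and 3, and 250 without HS3A8-low replicate 1, while the genes called stayed at 0 in each of these fits. DESeq2 called 11 genes, 1 above and 10 below the control, all 10 with the fractions on opposite sides of it, and limma's voom with sample quality weights called 1. The genes that passed the adjusted threshold in each fraction with the same sign, which is the strict form of a shared shift, also numbered 0 (0%). HS3A8-high on its own had 32 genes called against control (0.264%), all lower in HS3A8-high, and HS3A8-low had 0 (0%) by edgeR, with 685 at an unadjusted p under 0.05, 12 by DESeq2 and 295 by voom. By contrast 325 genes (2.68%) differed between HS3A8-high and HS3A8-low.

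The median standard error of the average log2 fold change was 0.23, and the 95% interval lay within 1 log2 unit on either side of 0 for 7737 genes (63.9%). Where the mean over libraries reached 5 CPM (9348 genes) that share was 79.9%. The fit takes the stained libraries as independent, so standard errors and intervals may be too small where both fractions of a replicate number deviate together. The median average log2 fold change of all genes tested was -0.01. The scaling sets the bulk of genes near 0, so a change common to most genes would not be seen. Unadjusted p values were unevenly spread, with 385 genes in the bin under 0.05 and 1047 in the bin from 0.05 to 0.1, where an even spread would put 605.4 genes in each of 20 bins.

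**Figure D1:**
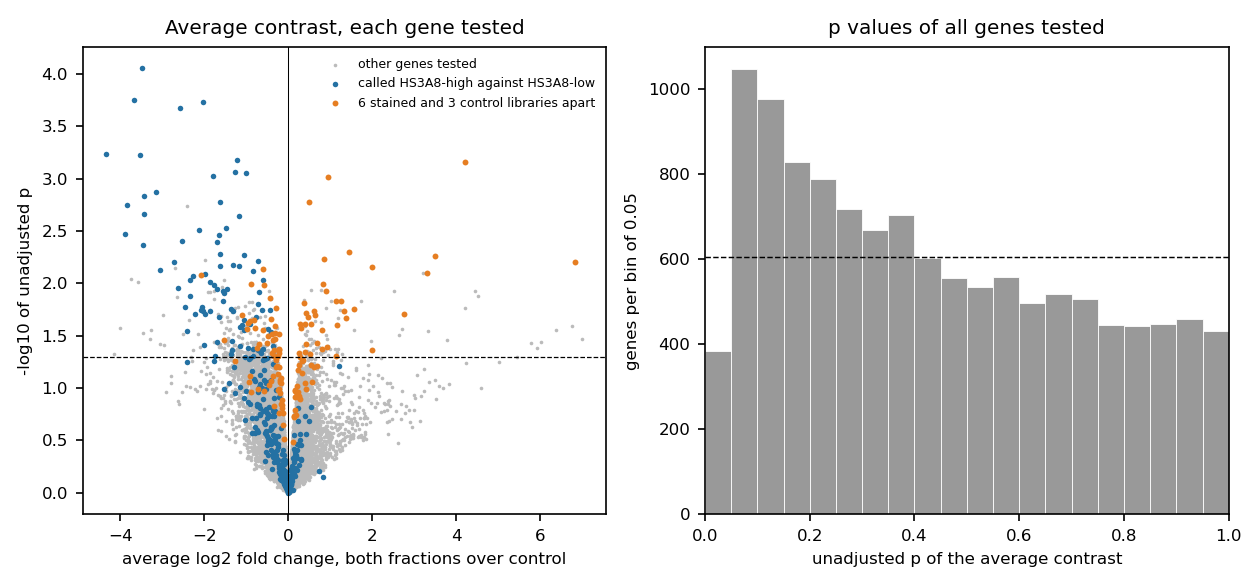
Left, average log2 fold change of both stained fractions over control against -log10 of the unadjusted p for each of the 12108 genes tested, with a dashed line at 0.05; blue points are the 325 genes called between HS3A8-high and HS3A8-low, and orange points are other genes whose 6 stained and 3 control libraries did not overlap. Right, the number of genes per bin of unadjusted p, with the level of an even spread dashed. The lowest p values on the left side belong largely to blue points, and the bin under 0.05 holds 385 genes.

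Of the 287 genes below the control at an unadjusted p under 0.05, 228 (79.4%) were lower in HS3A8-high than in HS3A8-low, against 57.4% of all 6220 genes with an average below 0. The fractions lay on opposite sides of the control for 91 of the 385 genes with an unadjusted p under 0.05 (23.6%), a smaller share than the 37.8% of all genes tested. All 91 had an average below 0, whereas over all 4571 genes with the fractions on opposite sides 49.3% did. Itga2b, the platelet integrin subunit that marks megakaryocyte commitment, is an example chosen after its values were seen, as were the next 3 genes. Its level was 74.3, 44.6 and 48.1 CPM in the controls, 7.97, 4.29 and 5.10 CPM in HS3A8-high and 125, 83.0 and 67.6 CPM in HS3A8-low. All 3 HS3A8-high libraries lay below every control, and 2 of the 3 HS3A8-low libraries lay above every control, yet its average log2 fold change was -1.27 (95% interval -1.85 to -0.68, unadjusted p = 0.000857, adjusted p = 0.746 by edgeR). Bulk libraries cannot tell fewer cells of a type from less RNA per cell, here and in the lists that follow. Pf4, encoding platelet factor 4, averaged -1.70, with 47.2 ± 38 CPM in control, 3.29 ± 1.4 CPM in HS3A8-high and 63.7 ± 18 CPM in HS3A8-low (SD, n = 3 each). Ctla2a encodes a cathepsin inhibitor and has a close paralogue, Ctla2b, so that the split of reads between them is uncertain. It averaged -2.57, with 55.9 to 127 CPM in control, 1.07 to 2.65 CPM in HS3A8-high and 45.6 to 165 CPM in HS3A8-low. Its adjusted p of 0.643 by edgeR was the lowest value reached in the average contrast, although its HS3A8-low libraries spanned its controls.

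An average of log2 values lies below the log2 of the mean of the same values when they differ, and this arithmetic set the sign of many averages. For the 317 genes higher in HS3A8-low than in HS3A8-high the median of the averaged log2 fold changes was -0.38, whereas the median log2 ratio of the mean CPM of both fractions to the control CPM was 0.10. The corresponding medians over all genes were -0.01 and 0.02. The control lay between the fractions for 312 of the 317 genes. The gap grew with the difference between fractions: the 136 genes whose fractions differed by 4 or more log2 units had medians of -1.70 and 0.02, and the 588 genes that differed by 2 to 4 units had medians of -0.30 and 0.18. Tcf7, a T-lineage transcription factor gene, changed sign between the scales. Its level was 12.2, 12.7 and 12.04 CPM in the controls, 1.07, 0.301 and 0.728 CPM in HS3A8-high and 81.3, 65.6 and 30.7 CPM in HS3A8-low, which gave -0.92 as the averaged log2 fold change and 1.25 as the log2 of the mean. Both fractions were thus outside the control range, on opposite sides.

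**Figure D2:**
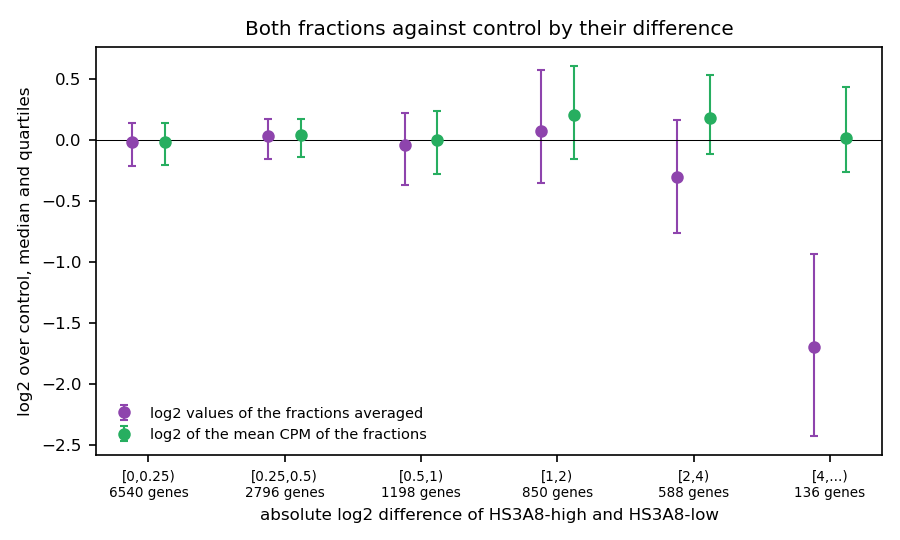
Median log2 difference from control, with bars from the lower to the upper quartile, for genes grouped by the absolute log2 difference between HS3A8-high and HS3A8-low, with the number of genes under each group. Purple points average the log2 values of the fractions and green points take the log2 of their mean CPM; the 2 measures lie close together in the first 3 groups and at -1.70 and 0.02 in the last.

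The 32 genes called in HS3A8-high against control lay on the opposite side of it in HS3A8-low. All 32 were higher in HS3A8-low than in control, with HS3A8-low log2 fold changes of 0.12 to 2.26, and all 32 were also called between the fractions. Their median log2 fold change was -3.55 for HS3A8-high and 0.76 for HS3A8-low, while the log2 of the mean of both fractions over control had a median of -0.07. Both fractions were compared with the same 3 control libraries, so the values in the fractions are not independent. The number of genes called in HS3A8-high was 0 and 9 without control replicates 2 and 3, 3, 1 and 76 without HS3A8-high replicates 1, 2 and 3, and 10 and 1 when HS3A8-low replicates 1 and 2 were left out. With the replicate number as a block it was 2, both among the 32. The count between the fractions was 117 with the block over all 9 libraries, 29 of the 32 among them, and 1378 with the block over the 6 stained libraries alone, all 32 among them.

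The fractions share their 3 control libraries, so a deviation of the controls enters both comparisons, and a count of genes that pass in both is a description only. With an unadjusted p under 0.05 in each fraction and the same sign, 26 genes (0.215%) remained, 21 above and 5 below the control, and 0 of the 26 were called between the fractions by edgeR. Many were low: 11 of the 21 genes above had a control mean under 1 CPM, and 8 had a mean of at least 5 CPM over the 9 libraries. Examples of low level, chosen after their values were seen as were Ppm1k and Ddx4, are Rftn2, a raft-associated protein gene at 0, 0.0638 and 0 CPM in the controls and 0.314 to 1.35 CPM in the stained libraries, and Cx3cr1, the fractalkine receptor gene of monocytes, at 0 to 0.255 CPM in the controls and 0.527 to 6.57 CPM in the stained libraries. In the controls Rftn2 was below the 3-count level, and Cx3cr1 was at 0 or near that level. The HS3A8-high values of Rftn2, 0.314 to 0.376 CPM, were not far above it. Ppm1k, encoding the phosphatase that activates branched-chain amino acid breakdown, was at 1.76 to 2.49 CPM in the controls and 3.16 to 4.97 CPM in the stained libraries without overlap, with an average log2 fold change of 0.89. Ddx4, a germ cell RNA helicase gene, was below the control, at 6.40, 7.59 and 3.67 CPM in the controls and 2.17 to 4.08 CPM in the stained libraries, with an average of -0.94 and an overlap of the groups.

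Some genes had all 6 stained libraries on one side of all 3 controls. There were 63 such genes above (0.52%) and 62 below (0.512%). A random order of the libraries would also put some genes in this position, and the number it would give was not computed. These counts are therefore a description only, and separation of the groups does not by itself mark a shift. Of these, 41 above and 44 below had a mean of at least 5 CPM. Their average log2 fold changes were small, from 0.11 to 0.94 above (median 0.33) and from -0.71 to -0.09 below (median -0.26), and 18 and 21 of them had an unadjusted p under 0.05. By edgeR 0 passed the adjusted threshold, and the 12 of lowest p in each direction are named here, all with an adjusted p of 0.746.

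Zfp772, a zinc finger protein gene at chr7:7202117-7209998 (mm10), had the lowest p among the non-overlapping genes above the control with a mean of at least 5 CPM. Rftn2, which is under that level, had a lower p. The level of Zfp772 was 4.80, 5.04 and 4.77 CPM in the controls, 7.28, 8.73 and 9.001 CPM in HS3A8-high and 10.2, 9.50 and 11.6 CPM in HS3A8-low. Every stained library lay above every control, as the choice required, and the controls lay close together. The average log2 fold change was 0.94 (95% interval 0.49 to 1.38, unadjusted p = 0.000958, adjusted p = 0.746 by edgeR), 0.77 for HS3A8-high and 1.10 for HS3A8-low alone, and the adjusted p between the fractions was 0.582. It was the single gene above the control that DESeq2 called, with an adjusted p of 0.02, and its log2 fold change was at least 0.86 in every setting tried. These settings drew on the same libraries by which the gene was chosen. Sh3tc2, which encodes an adaptor of endocytic recycling, was at 39.5, 35.4 and 43.5 CPM in the controls, 60.5, 50.6 and 54.2 CPM in HS3A8-high and 55.2, 57.7 and 56.7 CPM in HS3A8-low. Its average log2 fold change was 0.50 (0.24 to 0.76), nearly the same in both fractions at 0.48 and 0.52.

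Among the other named genes above the control, Rere, an atrophin-family corepressor gene, was at 7.63, 12.2 and 10.7 CPM in the controls and 15.4 to 24.3 CPM in the stained libraries (average log2 0.85). Insr, the insulin receptor gene, was at 7.72 to 10.1 CPM in the controls, 10.7 to 11.2 CPM in HS3A8-high and 13.1 to 15.05 CPM in HS3A8-low (0.47), so the HS3A8-high libraries lay just above the highest control. Ifnar2, a chain of the type I interferon receptor, was at 40.8 to 52.1 CPM in the controls and 53.7 to 65.2 CPM in the stained libraries (0.36). The remaining named genes above were Zc4h2 (0.82), the tRNA-processing enzyme gene Elac1 (0.65), the methionine sulfoxide reductase gene Msrb1 (0.61), the mRNA decapping gene Dcp1b (0.41), the palmitoyltransferase gene Zdhhc9 (0.40), the helicase-like gene Dhx32 (0.30) and Samhd1, a nucleotide triphosphatase gene (0.28).

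Cryz, which encodes a quinone reductase and lies at chr3:154596711-154623182 (mm10), had the lowest p among the non-overlapping genes below the control. Its level was 13.8, 11.9 and 12.4 CPM in the controls, 9.54, 8.81 and 7.61 CPM in HS3A8-high and 8.96, 8.09 and 7.32 CPM in HS3A8-low. The average log2 fold change was -0.60 (95% interval -0.99 to -0.21, unadjusted p = 0.00728, adjusted p = 0.746 by edgeR), and the fractions lay within 0.09 log2 units of each other. Depdc1a, a gene of mitotic progression, was at 25.1, 16.3 and 20.04 CPM in the controls, 12.6, 13.2 and 16.1 CPM in HS3A8-high and 14.2, 11.8 and 14.1 CPM in HS3A8-low (-0.58). Its lowest control exceeded its highest stained library by little, and control replicate 1 was its highest library.

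Between 10.6% and 16.2% of the exon bases of Kdelc1, Fancl and Taf11 overlap other genes, and whether counting used strand is not known, so their values are less certain than those of Cdc16, Mtap or Depdc1a, with 0% overlap. Control replicate 1 was the highest of all 9 libraries in each of the 12 named genes below. For Cdc16, a subunit of the anaphase-promoting complex, control replicate 1 was at 210 CPM, the other controls at 160 and 144 CPM and the stained libraries at 130 to 142 CPM (average log2 -0.31). For Taf11, a subunit of the general transcription factor TFIID, it was at 57.4 CPM, the other controls at 37.2 and 41.6 CPM and the stained libraries at 32.6 to 37.1 CPM (-0.36). Mtap, which salvages methionine from methylthioadenosine, had controls close together at 138, 132 and 131 CPM, with 120 to 128 CPM in HS3A8-high and 102 to 108 CPM in HS3A8-low (-0.22). Its fractions were less even, with log2 fold changes of -0.10 for HS3A8-high and -0.34 for HS3A8-low. The other genes were Slc25a26 (-0.49), the mitochondrial carrier of S-adenosylmethionine, the Fanconi anaemia ubiquitin ligase gene Fancl (-0.43), the protein glucosyltransferase gene Kdelc1 (-0.41), the mitochondrial ribosome GTPase gene Mtg2 (-0.39), the intraflagellar transport gene Ift52 (-0.31), the phosphatase subunit gene Ppp2r2d (-0.31) and the methylmalonyl-CoA mutase gene Mut (-0.29).

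**Figure D3:**
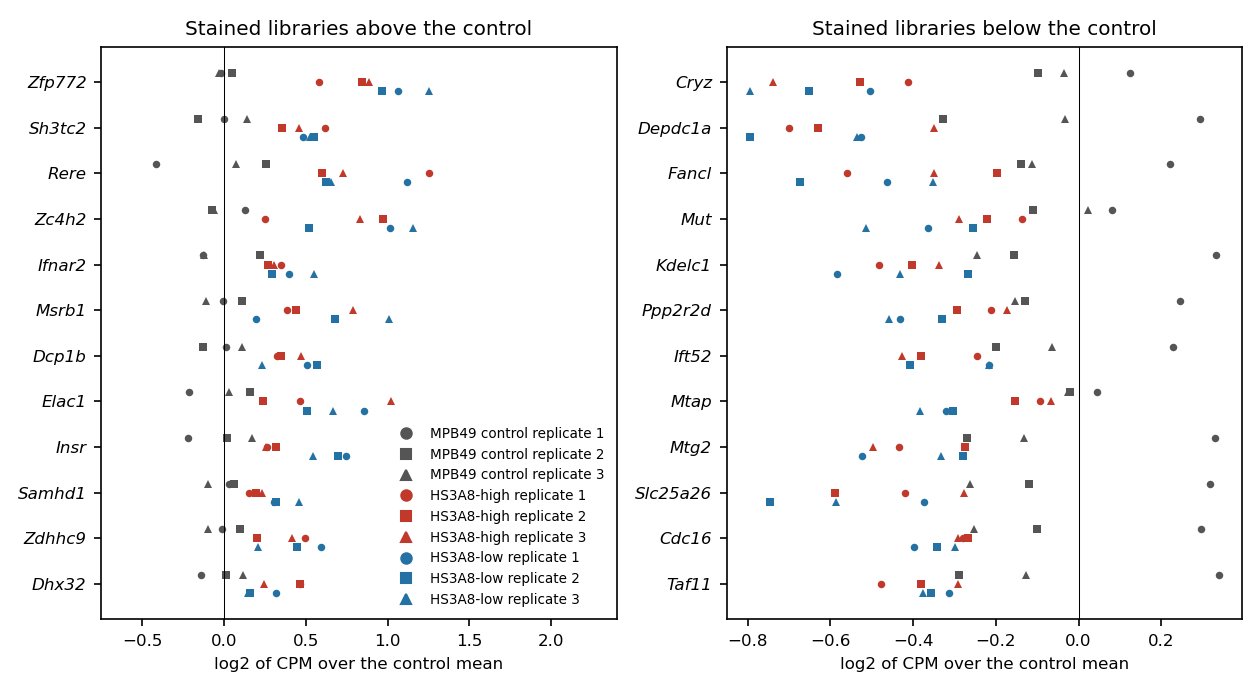
log2 of the CPM of each library over the mean CPM of the 3 controls, for the 12 named genes above (left) and the 12 below the control (right); grey, red and blue mark MPB49 control, HS3A8-high and HS3A8-low, and circles, squares and triangles mark replicates 1, 2 and 3. By the rule that chose the genes, every stained library lies on one side of every control, by small distances. On the right, control replicate 1 is the highest point of every gene.

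For comparison with the counts of each list, 51.4% of all genes tested had an average below 0. An unadjusted p under 0.05 by edgeR was reached by 3.18% of them. Stress responses, which handling of cells is known to raise, had no member called in the average by edgeR. The heat-shock and chaperone list had 8 of 19 tested members above and 11 below, with a median average log2 fold change of -0.02, against -0.01 over all genes tested, and 0 members were called or had an unadjusted p under 0.05. Hspa8, a constitutive chaperone gene, was at 3124 to 3823 CPM in the controls and 2434 to 4092 CPM in the stained libraries. The inducible Hspa1b, named after its values were seen, was at 93.8, 137 and 183 CPM in the controls, 79.3, 129 and 197 CPM in HS3A8-high and 57.0, 110 and 196 CPM in HS3A8-low, so that its groups covered the same range. The unfolded protein and integrated stress response list (17 tested, 7 above) had a median of -0.04 and the p53 target and apoptosis list (17 tested, 10 above) 0.05. The NF-kappaB response list (14 tested, 7 above) had 0.00, from medians of -0.70 for HS3A8-high and 0.53 for HS3A8-low, with 4 of 14 members on the same side of the control in both fractions, and the interferon response list (19 tested, 9 above) -0.04, each with 0 members called or at an unadjusted p under 0.05 by edgeR. Medians for HS3A8-high and HS3A8-low were 0.08 and -0.12 for the heat-shock list and -0.09 and 0.01 for the unfolded protein list. They were -0.15 and 0.19 for the p53 list and -0.18 and 0.14 for the interferon list. Members on the same side of the control in both fractions numbered 7 of 19, 11 of 17, 6 of 17 and 9 of 19 in that order. Without control replicate 1 the heat-shock list had 17 of 19 members below 0 and a median of -0.11, with 1 member at an unadjusted p under 0.05, and the interferon list had 17 of 19 above and a median of 0.15, with 2 such members. The NF-kappaB list without that library had 8 of 14 members above 0 and a median of 0.11, also with 2 such members. Ly6e, an interferon-induced surface protein gene, was at 581, 790 and 745 CPM in the controls, 783 to 858 CPM in HS3A8-high and 721 to 987 CPM in HS3A8-low.

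Immediate-early genes, which cells switch on within minutes of stimulation or dissociation, differed between the fractions. Their summed level was 2396, 2518 and 3951 CPM in the controls in rising order, 1690 to 2131 CPM in HS3A8-high and 3400 to 3632 CPM in HS3A8-low. HS3A8-high lay below all controls, and HS3A8-low lay above 2 of the 3. The median average log2 fold change was -0.41, with 24 of 28 tested members below 0, 3 of them at an unadjusted p under 0.05 and 0 called by edgeR. Median log2 fold changes by fraction were -1.11 in HS3A8-high and 0.38 in HS3A8-low. Myc, the most abundant member of the list, did not show this split. It was at 509, 830 and 813 CPM in the controls, 690 to 812 CPM in HS3A8-high and 634 to 787 CPM in HS3A8-low. Its average log2 fold change was 0.04, and its adjusted p between the fractions was 0.884 by edgeR. By contrast, Ier3, Dusp2 and Jun are described because their values showed this split or the effect of control replicate 1. Ier3, a survival-associated early gene, was at 34.8, 20.6 and 22.9 CPM in the controls, 10.05, 8.35 and 9.66 CPM in HS3A8-high and 30.9, 31.2 and 33.7 CPM in HS3A8-low, and averaged -0.59. Dusp2, a phosphatase of MAP kinases, averaged -0.63, with 31.6 to 54.98 CPM in control, 9.26 to 14.96 CPM in HS3A8-high and 48.5 to 67.0 CPM in HS3A8-low. Jun, an AP-1 subunit gene, was at 517, 180 and 222 CPM in the controls, 116 to 146 CPM in HS3A8-high and 297 to 365 CPM in HS3A8-low, and its average log2 fold change of -0.57 became 0.04 without control replicate 1. The list median was -0.01 without that library.

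Genes of translation and of oxidative phosphorylation were lower in the stained fractions by an amount that rested on control replicate 1. Cytosolic ribosomal protein genes had a median average log2 fold change of -0.70, with 79 of 79 tested members below 0, 3 of them at an unadjusted p under 0.05 and 0 called by edgeR. Their summed level was 125832 CPM in control replicate 1, against 42048 and 49106 CPM in replicates 2 and 3 and 37032 to 60880 CPM in the stained libraries. Without control replicate 1 the median was 0.04, and 61 of the 79 members lay above 0. Rps27l, a p53-inducible ribosomal protein paralogue chosen for its level in control replicate 1, was at 1823 CPM in control replicate 1, 193 and 348 CPM in the other controls, and 154 to 626 CPM in the stained libraries. Its average log2 fold change of -1.46 became 0.08 without that library. Ribosomal protein genes have many near-identical pseudogenes, so that single members are uncertain.

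Mitochondrially encoded protein genes (11 tested, 11 below 0) had a median of -0.61 with all libraries and 0.28, with 11 of 11 above 0, without control replicate 1. mt-Cytb, a subunit of respiratory complex III, was at 1843 CPM in control replicate 1, 384 and 614 CPM in the other controls and 414 to 866 CPM in the stained libraries. Its average log2 fold change was -0.69 with all libraries and 0.23 without control replicate 1. Nuclear oxidative phosphorylation genes (79 tested, 73 below 0) had a median of -0.49, and 0.01 without control replicate 1. Proteasome subunit genes (38 tested, 35 below 0) had -0.26 and -0.02, replication-dependent histone genes (41 tested, 34 below 0) -0.51 and 0.03, and the nuclear-retained and host noncoding genes (8 tested, 6 below 0) -0.32 and 0.32. By edgeR 0 of these members were called in the average. An unadjusted p under 0.05 was reached by 5 of 79 nuclear oxidative phosphorylation genes and 1 of 41 histone genes. Of all genes tested 3.18% reached it. Control replicate 1 also had the highest share of its counts in mitochondrial genes, 0.547% against 0.147% to 0.327% in the other 8 libraries, and the part of RNA quality or library preparation in these values was not tested.

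**Figure D4:**
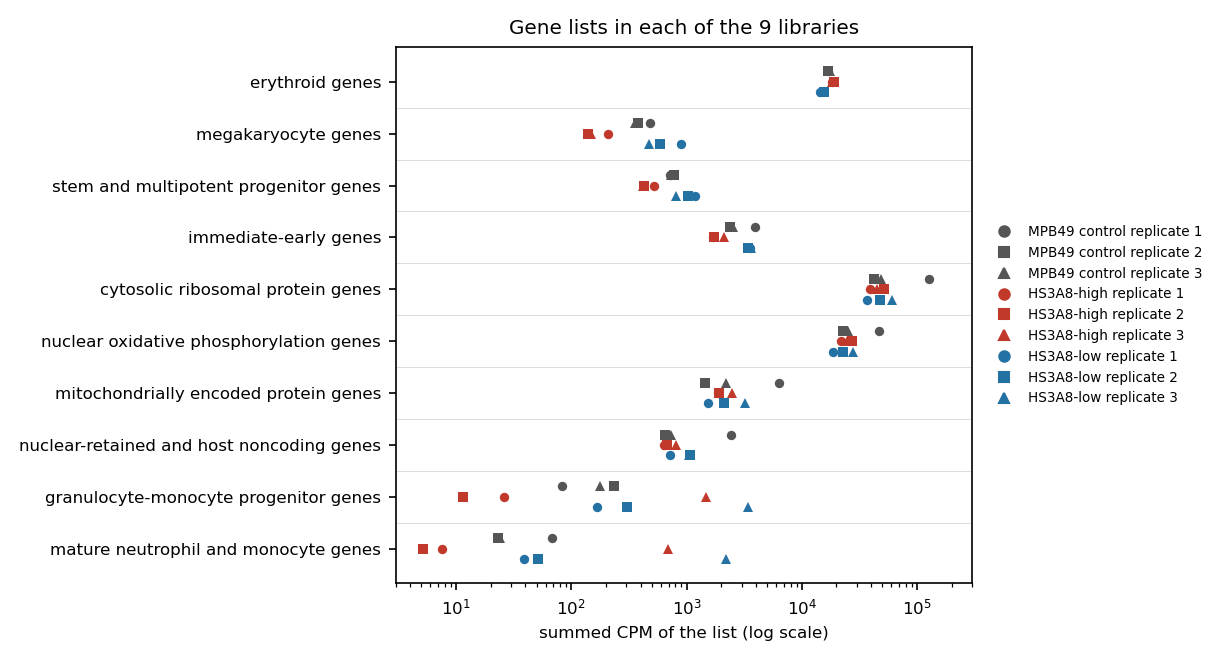
Summed CPM of 10 gene lists in each of the 9 libraries on a log scale, with groups by colour and replicates by marker shape. Control replicate 1 (grey circle) is the highest library in ribosomal protein, oxidative phosphorylation, mitochondrial and noncoding genes, and replicate 3 of both fractions (triangles) is highest in the granulocyte-monocyte and neutrophil lists.

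Granulocyte-monocyte transcripts gave the largest positive list medians, and these rested on replicate 3 of both fractions. The granulocyte-monocyte progenitor list had 15 of 15 tested members above 0 with a median average log2 fold change of 2.28, and 0 members at an unadjusted p under 0.05. Mpo, encoding the granule enzyme myeloperoxidase, with 14.95% of its exon bases overlapped by other genes, was at 20.5, 115 and 85.1 CPM in the controls, 5.97, 2.48 and 713 CPM in HS3A8-high and 50.9, 134 and 1611 CPM in HS3A8-low. Replicates 1 and 2 of HS3A8-high were thus below every control, and replicate 3 of each fraction was above every other library. Elane, the neutrophil elastase gene, was chosen after its values were seen, as were Ly6c2 and Fcgr3. It was at 4.61, 26.5 and 13.9 CPM in the controls, 1.44, 0.226 and 340 CPM in HS3A8-high and 12.1, 27.7 and 742 CPM in HS3A8-low. Its average log2 fold change of 3.51 (95% interval -1.21 to 8.23) was -1.84 without replicate 3 of both fractions, and that of Mpo went from 2.36 to -1.88. The list median without those 2 libraries was -1.48.

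Of 16 mature neutrophil and monocyte genes, 5 passed the filter on low counts, with a median of 3.17, and -0.94 without replicate 3 of both fractions. Their summed level was 23.2 to 67.7 CPM in the controls, 5.12, 7.54 and 696 CPM in HS3A8-high and 38.6, 51.8 and 2204 CPM in HS3A8-low. Lyz2, the lysozyme gene of myeloid cells, was at 16.7 to 53.1 CPM in the controls, 423 CPM in replicate 3 of HS3A8-high and 1466 CPM in replicate 3 of HS3A8-low, and 3.54 to 40.6 CPM in the other stained libraries. Ly6c2, a monocyte surface marker gene, was at 1.03 to 2.62 CPM in the controls, 200 and 506 CPM in replicate 3 of the fractions and 0.527 to 6.82 CPM in the other stained libraries, with an average log2 fold change of 6.01 (95% interval 0.46 to 11.56, adjusted p = 0.746 by edgeR). Fcgr3 encodes an Fcγ receptor for which the gate selects low cells. It was at 0.147 to 1.40 CPM in the controls, 17.8 and 43.9 CPM in replicate 3 of the fractions and 0.151 to 2.25 CPM in the other stained libraries. The part of other cells in these libraries was not tested.

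Lists of the MEP lineages had the mean control level between the fractions. Erythroid genes (30 tested, 17 above 0) had a median average log2 fold change of 0.07 and 0 members at an unadjusted p under 0.05. Their summed level was 16873 to 17722 CPM in the controls, 18399 to 18937 CPM in HS3A8-high and 14489 to 15708 CPM in HS3A8-low, so that the controls lay between the fractions without overlap. Megakaryocyte genes (22 tested, 19 below 0, 5 at an unadjusted p under 0.05, 0 called by edgeR) had a median of -0.56, but 0.07 for the log2 of the mean of the fractions. Their sums were 359, 381 and 479 CPM in the controls, 139 to 210 CPM in HS3A8-high and 472 to 890 CPM in HS3A8-low. F2r, the thrombin receptor gene, was at 73.6, 108 and 90.4 CPM in the controls, 37.4 to 65.7 CPM in HS3A8-high and 111 to 207 CPM in HS3A8-low. Stem and multipotent progenitor genes (16 tested, 13 below 0) had medians of -0.43 and 0.06 on these scales, with 3 members at an unadjusted p under 0.05 and 0 called by edgeR. Without control replicate 1 the median average log2 fold change was -0.38 for megakaryocyte genes and -0.46 for stem and multipotent progenitor genes. Adgrg1, an adhesion receptor gene of stem cells, was at 415 to 496 CPM in the controls, 281 to 362 CPM in HS3A8-high and 449 to 757 CPM in HS3A8-low.

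Lists of other blood and stromal cells gave no call in the average by edgeR, and 2 members, both of the T and NK cell list, had an unadjusted p under 0.05. The median average log2 fold change was 0.28 for basophil and mast cell genes (7 of 12 tested, 4 above 0), 0.15 for B cell genes (4 of 12 tested, 2 above), -0.18 for T and NK cell genes (11 of 12 tested, 5 above), -0.18 for macrophage genes (10 of 15 tested, 4 above) and -0.14 for stromal and endothelial genes (5 of 14 tested, 1 above). Without control replicate 1 the T and NK cell median turned to 0.68 (8 of 11 above) and the macrophage median to 0.22 (6 of 10 above). The basophil and mast cell median was 0.69 without that library. Its list was highest in replicate 3 of both fractions, with sums of 179 CPM in HS3A8-high and 245 CPM in HS3A8-low. The sums were 98.0 to 125 CPM in the controls and 84.1 to 106 CPM in the other stained libraries. The T and NK cell median was -1.72 for HS3A8-high, 2.12 for HS3A8-low and 0.81 for the log2 of the mean of the fractions. The defining B cell genes Pax5 and Ms4a1 and the endothelial gene Cdh5 had 0 counts in all 9 libraries. Ighm, the immunoglobulin mu chain gene, was at 18.2 to 22.6 CPM in the controls, 8.60, 1.73 and 35.5 CPM in HS3A8-high and 33.4, 32.8 and 101 CPM in HS3A8-low, highest in replicate 3 of each fraction. Nkg7, a granule protein gene of cytotoxic lymphocytes, was at 34.4 to 65.2 CPM in the controls, 3.76 to 25.6 CPM in HS3A8-high and 97.3 to 115 CPM in HS3A8-low.

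Cell cycle and metabolic lists had medians near that of all genes. The median average log2 fold change was 0.09 for DNA replication genes (21 tested, 13 above 0), 0.01 for mitosis genes (20 tested, 11 above), 0.10 for hypoxia and glycolysis genes (22 tested, 15 above), 0.00 for cholesterol synthesis genes (21 tested, 10 above), 0.04 for spliceosome genes (64 tested, 35 above) and 0.07 for the genes of the MEP gate (12 tested, 8 above), with 0 members called by edgeR and 5 at an unadjusted p under 0.05, of which 2 were genes of the MEP gate. Without control replicate 1 members above 0 numbered 7 of 21 for DNA replication, 3 of 20 for mitosis, 8 of 22 for hypoxia and glycolysis and 4 of 12 for the MEP gate, with medians of -0.03, -0.07, -0.02 and -0.06. Mitosis genes summed to 3515 to 4055 CPM in the controls, 4354 to 4553 CPM in HS3A8-high and 3070 to 3538 CPM in HS3A8-low. Ccnb1, the mitotic cyclin B1 gene, was at 396 to 428 CPM in the controls, 464 to 496 CPM in HS3A8-high and 304 to 370 CPM in HS3A8-low, without overlap of the 3 groups. E2f1, a transcription factor gene of S phase entry singled out after its values were seen, was the member of the DNA replication list whose groups did not overlap, at 77.0 to 81.0 CPM in the controls and 83.2 to 94.9 CPM in the stained libraries.

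Genes of heparan sulfate itself gave no call in the average by edgeR. Synthesis genes (20 tested, 13 above 0, 1 at an unadjusted p under 0.05) had a median of 0.11 and core protein genes (11 tested, 6 above, 2 at an unadjusted p under 0.05) a median of 0.09. DESeq2 called Gpc4 alone among the 7 genes that follow. Of these, the glypican core protein gene Gpc4 had the lowest p, with the fractions on opposite sides. It was at 28.2, 32.2 and 24.96 CPM in the controls, 38.7, 41.7 and 41.6 CPM in HS3A8-high and 3.81, 5.14 and 1.85 CPM in HS3A8-low, and averaged -1.23. Agrn, the agrin core protein gene, was the member with both fractions below, at 29.8, 14.3 and 20.04 CPM in the controls, 15.6, 13.0 and 9.93 CPM in HS3A8-high and 14.5, 10.3 and 6.99 CPM in HS3A8-low. Its average log2 fold change was -0.87 (95% interval -1.53 to -0.21, unadjusted p = 0.0151, adjusted p = 0.746 by edgeR), and the groups overlapped. The chain-initiating enzyme gene Extl3 averaged 0.31, the 6-O-sulfotransferase gene Hs6st1 0.24, the betaglycan gene Tgfbr3 0.20, the N-deacetylase and N-sulfotransferase gene Ndst2 0.09 and the polymerase gene Ext1 0.02, each with an interval that included 0. The widest of these intervals was that of Hs6st1, from -0.43 to 0.90, and the narrowest that of Ndst2, from -0.15 to 0.33.

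The Y-linked genes Ddx3y, Kdm5d, Uty and Eif2s3y had 0 counts in all 9 libraries, which allows up to 3 counts or 0.189 to 0.255 CPM in a library. Xist, the noncoding RNA of the inactive X chromosome, with 12.6% of its exon bases overlapped by other genes, was at 97.3, 41.6 and 39.7 CPM in the controls, 27.8, 34.5 and 31.0 CPM in HS3A8-high and 38.9, 67.0 and 87.8 CPM in HS3A8-low, with an average log2 fold change of -0.41 that became 0.13 without control replicate 1.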

How the data were processed

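The deposited table held whole-number read counts per gene that the authors made for 9 bulk RNA-seq libraries of sorted MEPs; the submitters' processing notes name STAR 2.5, HTSeq 0.6.1 and the mouse build mm10, and whether counting used strand is not given in the sources used here. Of 35275 Ensembl identifiers, 34490 were found in GENCODE M21, which gave symbols and coordinates. Counts were tested with edgeR 4.0.16 (R 4.3.3): filterByExpr left 12108 genes, TMM gave the scaling, and a quasi-likelihood fit with 1 mean per group over all 9 libraries tested the average of HS3A8-high and HS3A8-low against control, each fraction against control and the fractions against each other, with Benjamini-Hochberg adjustment over all 12108 genes and a threshold of 0.05. A fold change of a gene at 0 in a group depends on the fit's prior count. The log2 of mean CPM used a pseudocount of 0.5 CPM. Total counts of 11781637 to 15850037 limited counting precision. DESeq2 1.42.0, limma 3.58.1, other filters and scalings, left-out libraries and a summed mixture of the fractions were alternatives. The scripts were tested on simulated data.

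The named genes were, since no gene was called, the 12 of lowest p in each direction with a mean of at least 5 CPM. The same sign in both fractions and no overlap of stained and control libraries were also required. Added to these were the sex-linked genes, 7 heparan sulfate genes and the most abundant member of each of 31 gene lists. For some lists that member is not printed. Without a gene name, 1 gene above and 2 below met the conditions and were counted only. The members and the lists were chosen with earlier results of these data known. Replicate numbers paired the fractions (correlation of deviations 0.325 to 0.509 for the same number) but not the controls with the fractions (-0.345 to 0.0312), so the main fit had no block. That fit treats all stained libraries as independent. Since both fractions of a number deviated together, the standard errors, intervals and p values of the average may be too small.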

Additional observations from a re-analysis of the deposited data

Results flagged for a closer look

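In the 6 stained libraries, 77 sets of values (46 named genes and 31 list sums) were searched for a library far from the rest, by Dixon's ratio above 0.625, which chance alone passes in about 1 of 20 sets, and 2 passed. Rps27l was highest in HS3A8-low replicate 3, at 626 CPM against 154 to 304 CPM in the other stained libraries. The summed mature neutrophil and monocyte genes were highest in the same library, at 2204 CPM against 5.12 to 696 CPM.

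For 7 of the 46 genes the fractions differed from control by unequal amounts, as tested by edgeR's contrast of HS3A8-high with HS3A8-low at an adjusted p under 0.05. The difference in log2 fold change, HS3A8-high minus HS3A8-low, was 3.49 for Gpc4 (adjusted p = 0.00281), -3.98 for Itga2b (0.00225), -4.27 for Pf4 (0.0126), -6.17 for Ctla2a (0.00378), -6.36 for Tcf7 (0.00225), -2.26 for Dusp2 (0.00612) and -1.77 for Ier3 (0.00667). None of these 7 had both fractions on the same side of the control mean, and 6 of them were chosen for the text after their values were seen.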

How the results depend on the processing

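The count of 0 genes called in the average remained 0 in 21 alternatives by edgeR and became 11 with the DESeq2 Wald test (Zfp772 above, 10 below with the fractions on opposite sides) and 1 below with voom quality weights; leaving out 1 library each gave 0 to 0. The count of genes called in both fractions with the same sign was 0 in the 20 alternatives run. The 21 and the 20 each include 2 stricter cutoffs put on the main edgeR fit, adjusted p under 0.01 and log2 differences of 1 or more. With 0 calls at 0.05 these cutoffs could only return 0, so they did not test either count. Genes at an unadjusted p under 0.05 (385) numbered 142 (112 above, 30 below) for the arithmetic mixture, 731 without the low-count filter, 661 with DESeq2, 825 with voom, and 255, 1655 (263 above, 1392 below) and 821 without control replicates 1, 2 and 3. Genes called in HS3A8-high against control (32) numbered 26, 0 and 9 without control replicates 1, 2 and 3, then 3, 1 and 76 when the HS3A8-high and 10, 1 and 22 when the HS3A8-low replicates were left out in that order, with 215 by DESeq2 and 93 by voom; the cause was not tested. With the replicate block, 0 genes were called in the average (lowest adjusted p 0.275), 250 had an unadjusted p under 0.05 and 2 were called in HS3A8-high against control. With the block, added after seeing the data for the fractions against each other, 117 (9 libraries) or 1378 (6 stained libraries) genes were called in place of 325.

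Of 966 alternative values for named genes, 925 kept their direction and side of the threshold, 4 passed it (Zfp772, Gpc4, Itga2b and Ctla2a with DESeq2) and 37 turned, the cause not tested except where a left-out library or the mean scale shows it. Voom gave log2 -0.082 for Tgfbr3, -0.14 for Ext1, -0.29 for Hs6st1, 0.12 for Xist, -0.47 for Elane, -0.72 for Mpo and 0.062 for mt-Cytb. The replicate block gave -0.021 for Ext1 and -0.10 for Mpo. Leaving out 1 library each gave ranges of -0.10 to 0.12 for Ext1, 0.039 to 0.50 for Hs6st1, -0.61 to 0.13 for Xist, -0.0038 to 4.20 for Elane, -0.55 to 2.84 for Mpo, -1.92 to 0.077 for Rps27l, -1.06 to 0.23 for mt-Cytb and -0.83 to 0.037 for Jun. The values above 0 of Xist, Rps27l, mt-Cytb and Jun came without control replicate 1, where Ext1 was -0.051, and the lowest values of Elane and Mpo without HS3A8-high replicate 3. Ext1 was -0.016 without HS3A8-high replicate 1 and -0.15 with GC and length trends removed, where Ndst2 was -0.033. Tcf7 was 1.27 for the arithmetic mixture and 1.28 for the fit of 2 groups. Alternatives added after seeing the data left out both fractions of replicate 3 (Elane -1.84, Mpo -1.88), these and control replicate 1 (Hs6st1 -0.023, Elane -2.27, Mpo -2.33, mt-Cytb 0.0064), or set the mixture against control replicates 2 and 3 (Ext1 -0.045, Xist 0.23, Itga2b 0.070, Pf4 0.40, Tcf7 1.27, Rps27l 0.11, mt-Cytb 0.23, Jun 0.19, Dusp2 0.058). With 3 controls, 1 of them apart, the 95% interval of 71.5% of genes reached beyond 0.5 log2 units on either side of 0, so small shifts were not detectable for most genes.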
